A study of Caenorhabditis elegans with 2 samples.

Results

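The mir-51 family of Caenorhabditis elegans consists of 6 microRNA genes, cel-mir-51, cel-mir-52, cel-mir-53, cel-mir-54, cel-mir-55 and cel-mir-56, out of 261 microRNA genes in the annotation. The family was chosen by its polymerase summits in these data, above all the one at cel-mir-52, the strongest near any microRNA gene here, so the polymerase values below are a description and carry no test. For each gene, peak summits within 2 kb of the annotated hairpin were collected, each with its rank by the authors' signal value. Chromatin of whole young adult worms of the wild-type strain N2, males and females pooled, was immunoprecipitated with an antibody against AMA-1, the largest subunit of RNA polymerase II, and sequenced (ChIP-seq). There was 1 group with 2 biological replicates, no treatment and no other genotype. The peak lists were a final list of 1103 peaks from the irreproducible discovery rate procedure (the optimal list) and longer lists, with 30000 entries for both replicates pooled, 27847 for replicate 1 and 30000 for replicate 2. The longer lists contain background as well as peaks by their own description, so a low rank in them may be background. Whole worms mix all tissues, and more cells with polymerase at a gene cannot be told apart from more polymerase per cell.

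MicroRNAs are cut by Drosha and Dicer out of hairpins in longer transcripts of RNA polymerase II, and are then loaded into Argonaute proteins. The seed, the bases at the start of the mature strand that pair with target messages, defines a family. The mir-51 family is the worm relative of the widely conserved miR-99/100 family. Worms that lack the whole family die as embryos, many with a detached pharynx, while loss of single members has little visible effect, and the cadherin gene cdh-3 has been reported as a target in pharynx attachment.

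The mature strands are shown because they are what makes these genes a family. Sequences were read from the RefSeq WBcel235 genome (the coordinates of ce11) at the arm positions of Ensembl release 115, 5′ to 3′ as RNA, with the seed (bases 2 to 8) in capitals.
cel-mir-51: uACCCGUAgcuccuauccauguu
cel-mir-52: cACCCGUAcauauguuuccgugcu
cel-mir-53: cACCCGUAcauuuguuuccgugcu
cel-mir-54: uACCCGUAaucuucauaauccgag
cel-mir-55: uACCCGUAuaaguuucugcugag
cel-mir-56: uACCCGUAauguuuccgcugag
All 6 members carry the seed ACCCGUA, and no other gene does among the 257 microRNA genes with annotated mature arms. The strands are 22 to 24 nt long, and the 7 seed positions are the only ones alike in all 6. The closest pair is cel-mir-52 and cel-mir-53, alike at 23 of 24 aligned positions (95.8%), followed by cel-mir-55 and cel-mir-56 at 20 of 23 (87.0%). Over the 15 pairs the median identity was 64% for the mature strands and 50.5% for the whole hairpins. The seed strand lies in the 5′ arm of the hairpin in the 3 genes on chromosome IV and in the 3′ arm in the 3 genes on chromosome X.

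The 6 genes form 3 loci when genes within 2 kb of each other are joined. On chromosome IV, cel-mir-52 (WBGene00003280, chrIV:14034008-14034107, plus strand) stands alone. On X, cel-mir-54 (WBGene00003282, chrX:13144996-13145094), cel-mir-55 (WBGene00003283, chrX:13144827-13144924) and cel-mir-56 (WBGene00003284, chrX:13144691-13144787) follow each other on the minus strand within 404 bp, with gaps of 39 to 71 bp. A looser pair on chromosome IV holds cel-mir-53 (WBGene00003281, chrIV:11027593-11027691) and cel-mir-51 (WBGene00003279, chrIV:11026013-11026112), both on the minus strand and 1480 bp apart. Joined at 1 kb or less this pair would count as separate genes, giving 4 loci.

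The genomic stretches that hold the strongest summit of each locus are shown next, 5′ to 3′ along the strand of the microRNA, with the mature seed strand in capitals. They come from the same genome, and their ends were chosen after the summits were known. The first is ce11 chrIV:14033818-14034107, plus strand, with the pooled summit at its base 167.
cel-mir-52: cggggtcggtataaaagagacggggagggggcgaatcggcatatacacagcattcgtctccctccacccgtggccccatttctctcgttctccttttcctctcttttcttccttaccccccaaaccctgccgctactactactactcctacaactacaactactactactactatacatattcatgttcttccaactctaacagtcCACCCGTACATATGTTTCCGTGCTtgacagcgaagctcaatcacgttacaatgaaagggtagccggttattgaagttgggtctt
The second is ce11 chrX:13144996-13145294, minus strand, with the summit at its base 119.
cel-mir-54: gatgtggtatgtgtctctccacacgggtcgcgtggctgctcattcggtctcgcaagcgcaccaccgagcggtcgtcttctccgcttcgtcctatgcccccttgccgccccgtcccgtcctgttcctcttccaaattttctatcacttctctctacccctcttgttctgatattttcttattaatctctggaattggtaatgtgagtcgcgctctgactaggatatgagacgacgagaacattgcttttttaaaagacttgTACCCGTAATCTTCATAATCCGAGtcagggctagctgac
The third is ce11 chrIV:11026013-11026262, minus strand, with the summit at its base 103.
cel-mir-51: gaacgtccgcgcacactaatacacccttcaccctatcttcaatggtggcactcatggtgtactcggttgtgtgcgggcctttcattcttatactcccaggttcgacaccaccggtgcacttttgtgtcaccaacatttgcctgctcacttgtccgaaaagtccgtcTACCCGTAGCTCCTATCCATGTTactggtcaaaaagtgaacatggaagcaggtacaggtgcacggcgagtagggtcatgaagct
In each stretch the summit falls before the hairpin, which begins at the last 100 bases or so, and the cel-mir-52 and cel-mir-54 stretches run through long tracts of C and T ahead of it.

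Every family gene had an optimal summit within 2 kb, 6 of 6 genes at 3 of 3 loci. The background share was 9.02% of the other microRNA genes (23 of 255, 95% Wilson interval 6.09 to 13.2, which covers the counting of genes only) and 6.49% of protein-coding genes (1297 of 19973). Since polymerase peaks chose the family, nothing is read from this contrast. The 6 genes share 6 optimal summits, of which 1 lay at cel-mir-52, 2 at the X cluster and 3 at the pair. A further 13 summits within 2 kb were in the pooled list and outside the optimal one. The weakest optimal summit among the 6 had a signal value of 42.7, against a lowest value of 40.5 in the optimal list. The strongest that stayed outside had 34.7, near cel-mir-56, and 33.5, ahead of cel-mir-52.

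At the isolated gene cel-mir-52 the polymerase summit was among the strongest of the genome in every list. It ranked 6 in the pooled list with a signal value of 321, 14 in replicate 1 (76.1) and 4 in replicate 2 (239). Signal values are scaled differently in each list, so the ranks and not the values can be set side by side. The pooled summit lay at 14033984, 24 bp ahead of the hairpin, with the replicate summits 23 bp and 13 bp from it. In the pooled list it stood apart from its surroundings, since the next summit within 2 kb, at 14032860, ranked 1780 and the only other one 28574.

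The cel-mir-52 summit is ambiguous between strands and genes, because ChIP reads do not tell which strand is transcribed. Its position falls inside Y37A1B.330 (WBGene00195705), a non-coding RNA of 448 bp on the same strand that ends 3 bp before the hairpin. It also falls inside WBGene00199919, a non-coding RNA of 149 bp on the opposite strand that overlaps the hairpin. Another non-coding gene, WBGene00198933, lies 118 bp away on the opposite strand. This part of chromosome IV is rich in genes of piRNAs, small germline RNAs that guard against transposons, and 37 of them lie within 5 kb of cel-mir-52. None lies within 500 bp of the summit, the nearest being 1217 bp away. The weaker summit at 14032860 lay inside Y37A1B.332, another non-coding gene.

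The X cluster was flanked by a strong summit on each side. Ahead of cel-mir-54, the first gene of the cluster, the summit at 13145176 ranked 29 in the pooled list (signal value 163), 62 in replicate 1 (47.6) and 27 in replicate 2 (123). It lay 82 bp before cel-mir-54, 252 bp before cel-mir-55 and 389 bp before cel-mir-56. Behind the cluster, a summit at 13144624 lay 67 bp past the 3′ end of cel-mir-56. This one ranked 93 in the pooled list (108), 149 in replicate 1 (33.7) and 111 in replicate 2 (76.2). In all 3 lists the summit ahead of the cluster ranked better than the one behind it, and replicate summits lay within 42 bp of the pooled ones. The next summit, at 13144055 and 636 bp past cel-mir-56, ranked 1615 in the pooled list, 4305 in replicate 1 and 692 in replicate 2, so in replicate 2 alone it would have been among the 1103 strongest.

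The X cluster lies within an intron of F09A5.3 (WBGene00008600, chrX:13141601-13152838), a protein-coding gene on the opposite strand that contains all 7 pooled summits of the locus. Polymerase on F09A5.3 and on the microRNA strand therefore cannot be told apart. The summit ahead of the cluster lay 37 bp from F09A5.11 (WBGene00196304), a non-coding RNA of 59 bp on the strand of the cluster that ends 118 bp before cel-mir-54. An antisense hairpin gene, cel-mir-55b (WBGene00303113), overlaps cel-mir-55 on the plus strand. It is not a member and was counted among the other microRNA genes, where it inherits the ranks of this cluster.

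At the pair the summits were weaker and the replicates placed them differently. The best pooled summit, at 11026160 and 48 bp ahead of cel-mir-51, ranked 510 with a signal value of 53.7. The overlapping peaks ranked 694 in replicate 1 (18.5) and 358 in replicate 2 (48.2). In replicate 2 the summit was 22 bp from the pooled one, but in replicate 1 it was 209 bp away, at 11026369. The pooled summit fell inside F36H1.17 (WBGene00219935), a non-coding RNA of 89 bp on the same strand that ends 18 bp before the hairpin. The 3′ end of alh-3 (WBGene00000109), an aldehyde dehydrogenase gene that converges on cel-mir-51 from the other strand, lay 290 bp from it.

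At cel-mir-53 the pooled summit fell inside the hairpin, the only family gene where it did. The replicate 2 summit was inside as well, 29 bp past the 5′ end. In replicate 1 the summit lay 65 bp from the pooled one, at 11027710, which is 19 bp ahead of the hairpin and outside it. The pooled summit, at 11027645 and 46 bp past the 5′ end, ranked 619 in the pooled list (50.01). Its counterparts ranked 384 in replicate 2 (47.0) and 5060 in replicate 1 (7.92). In replicate 1 alone this peak would thus have missed a list of 1103 peaks. The strongest replicate 1 summit at this locus lay elsewhere, at 11027250 between the genes, where it ranked 609 (19.4), while the pooled peak that overlaps it ranked 9571 and the replicate 2 peak 12356. The third optimal summit of the locus, at 11025292, lay in the body of alh-3, 721 bp past cel-mir-51, and ranked 946 in the pooled list, 1437 in replicate 1 and 1076 in replicate 2.

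**Figure D1:**
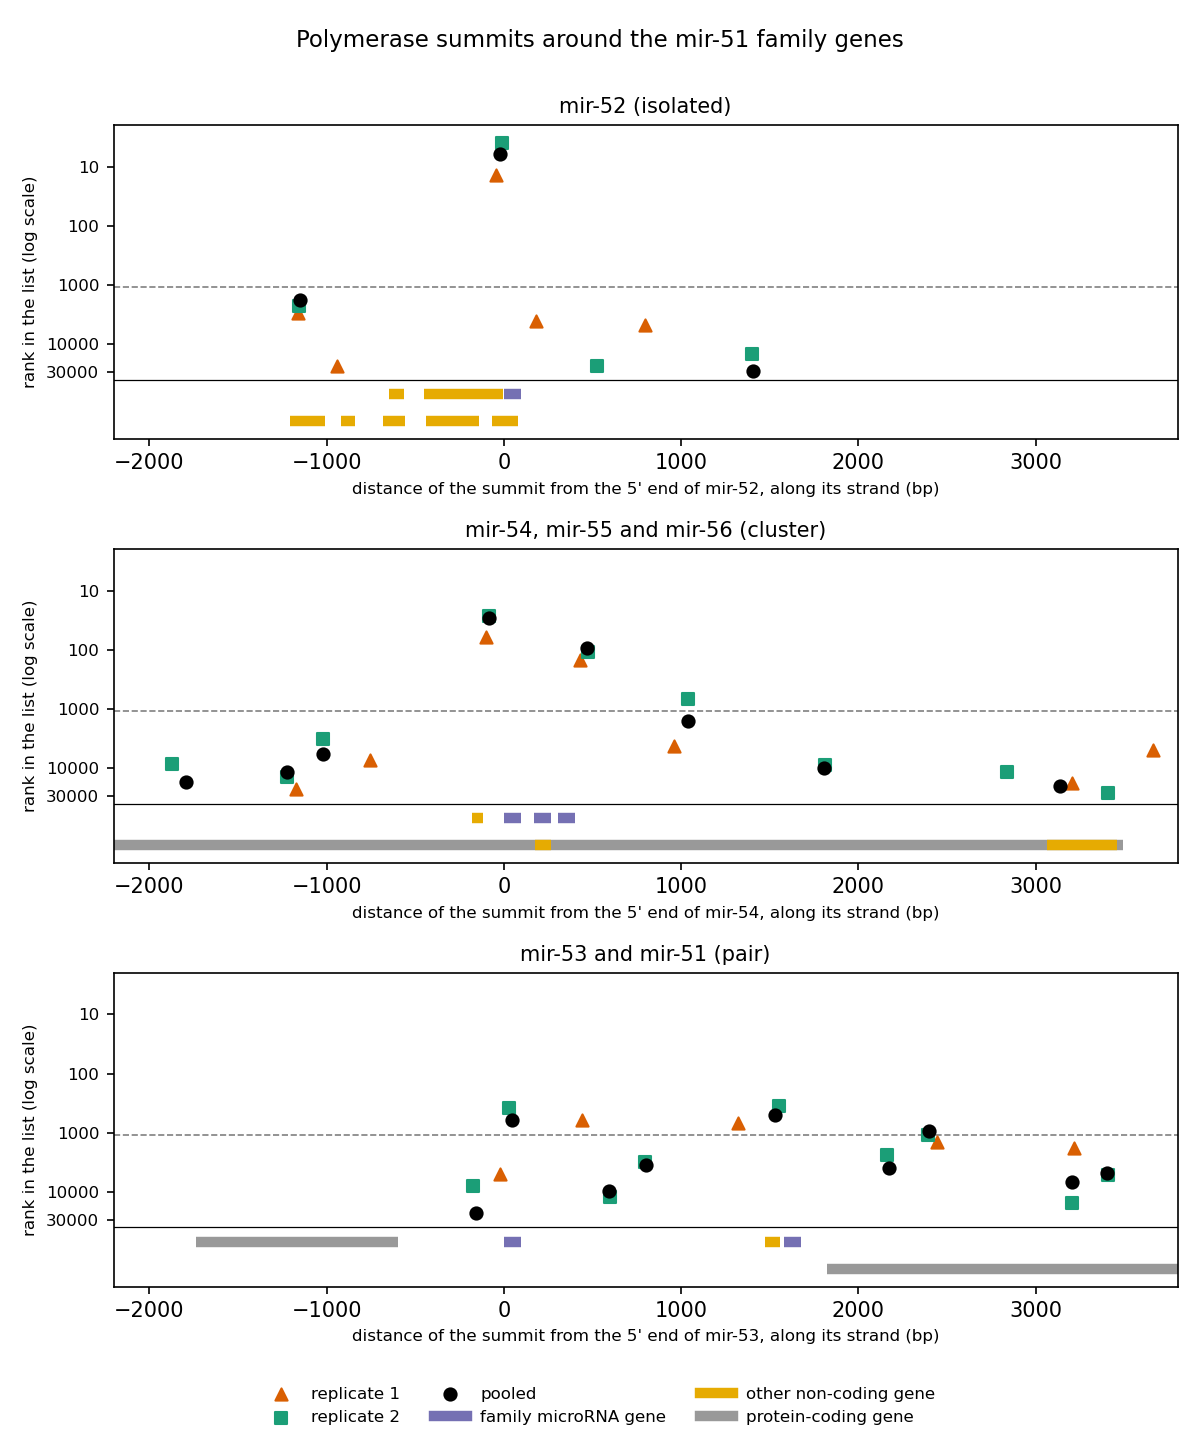
Each point is a peak summit within the drawn span, which reaches farther than 2 kb from the family genes. The x axis is its distance from the 5′ end of cel-mir-52, cel-mir-54 or cel-mir-53 in bp. The y axis is its rank in its list on an inverted log scale, for the pooled list and both replicates. Bars below are annotated genes without piRNAs (upper row, same strand as the microRNA; lower row, opposite strand), the dashed line is rank 1103, and the solitary summit of cel-mir-52 (rank 6) and the flanking summits of the X cluster (29 and 93) stand well above those of the pair (510 and 619).

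Clustered and isolated genes did not fall into an order by cluster size. The isolated gene had the best rank, 6, the cluster of 3 genes came next with 29, and the pair had 510. Replicate 1 gave the same order of loci, with best ranks of 14, 62 and 609, and so did replicate 2 with 4, 27 and 358. With 3 loci, of which 1 is isolated, no statement about isolated genes in general can be made from these data. The nearly identical strands of cel-mir-52 and cel-mir-53 came from opposite ends of this range, with nearest summits ranked 6 and 619.

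The arrangement of summit and hairpin also varied within the family. The nearest optimal summit was upstream of cel-mir-51, cel-mir-52 and cel-mir-54, inside cel-mir-53, and downstream of cel-mir-55 and cel-mir-56. At cel-mir-53 the replicate 1 summit was upstream instead. The distance from the hairpin was 57.5 bp at the median and at most 203 bp (cel-mir-55). Among the 23 other microRNA genes with an optimal summit within 2 kb, 18 had the nearest upstream, 3 inside and 2 downstream, at a median of 206 bp. Annotated 5′ ends here are those of the hairpin, not of the primary transcript, whose start these lists do not show.

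**Figure D2:**
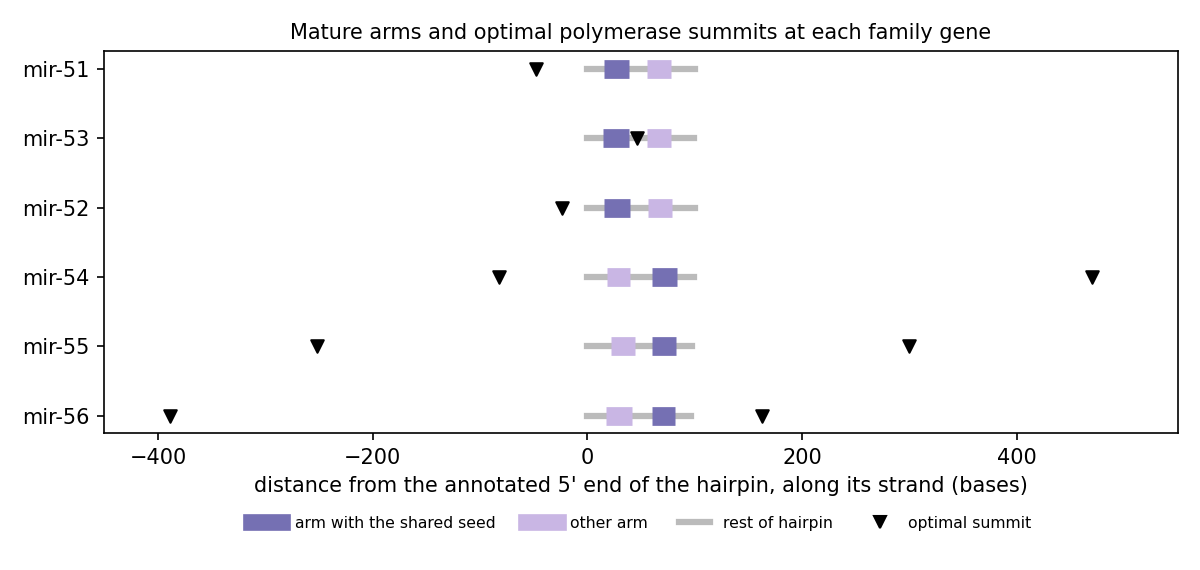
Hairpins of the 6 genes are drawn along their own strand from the annotated 5′ end (x axis, distance in bases), with the arm that holds the shared seed dark, the other arm light and optimal summits as triangles. The seed arm is the first in cel-mir-51, cel-mir-52 and cel-mir-53 and the second in the X cluster, where the same 2 summits, at 82 bp before cel-mir-54 and 67 bp past cel-mir-56, flank all 3 genes; summits farther than the axis are not shown.

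Ranks of family summits were better in replicate 2 than in replicate 1 at all 6 optimal peaks. The same direction held for 705 of the 1055 optimal peaks that overlapped a peak in both replicates (66.8%), with a median ratio of the replicate 1 rank to the replicate 2 rank of 2.11 (interquartile range 0.599 to 6.997). The ratio at cel-mir-53, with ranks of 5060 and 384, was above that interquartile range, and the ratios of the other 5 were within it. Among the 100 strongest pooled peaks the direction held at 68. Whether depth differs between the replicates cannot be read from the peak lists.

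**Figure D3:**
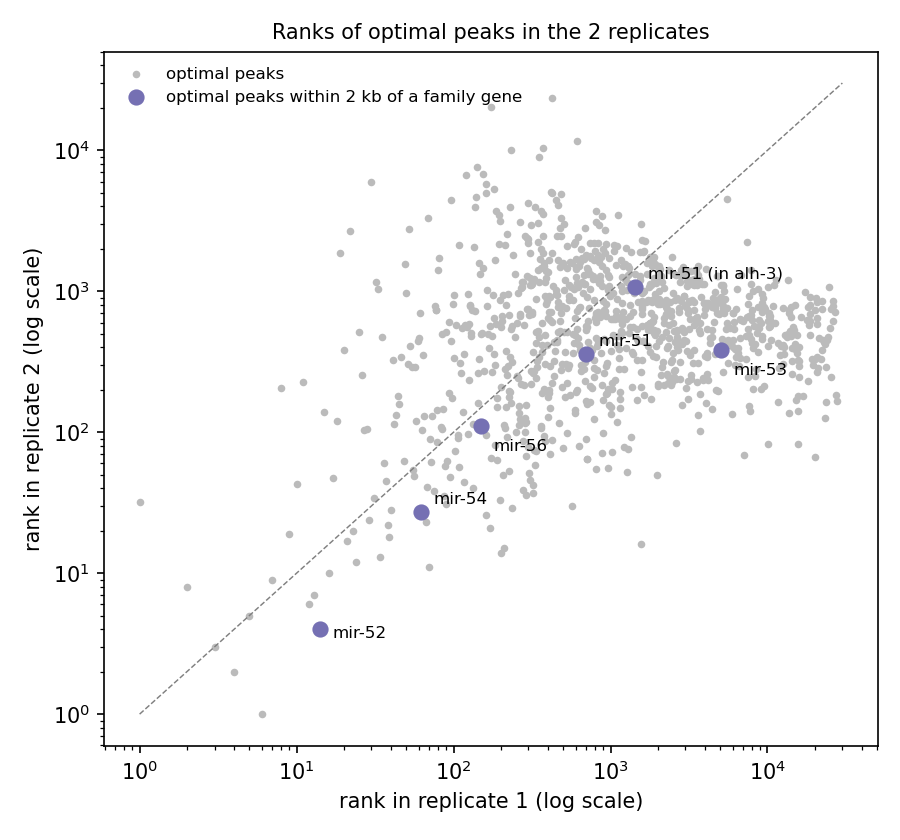
Each grey point is an optimal peak that overlapped a peak in both replicates, plotted by its rank in replicate 1 (x axis) and replicate 2 (y axis), both on log scales, with equal ranks on the dashed line. The 6 purple points are the optimal peaks within 2 kb of a family gene, named by the nearest gene, and all 6 lie below the line, with cel-mir-53 (5060 and 384) the farthest from it.

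Placed among all 261 microRNA genes by the best pooled rank within 2 kb, cel-mir-52 came first, followed by the 3 genes of the X cluster, tied with the antisense cel-mir-55b. The members cel-mir-51 and cel-mir-53 stood at places 22 and 23, both with rank 510. At least 1 of the 100 strongest pooled peaks lay within 2 kb of 13 microRNA genes. Of these, 4 were family members, cel-mir-52 and the 3 genes of the X cluster, which share their summits. The other 9 were 3.53% of the 255 microRNA genes outside the family, beside 0.776% of protein-coding genes. The cut at 100 peaks was chosen after the ranks were seen. The median best rank was 29 over the 6 family genes, against 5277.5 over the 138 other microRNA genes with a pooled summit and 6033 over such protein-coding genes. These medians describe the choice of the family and were not tested.

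The microRNA genes outside the family with ranks most like those of cel-mir-52 were found by the sum of absolute log2 differences in best rank over the pooled list and both replicates. By these best ranks the smallest sum, 7.05, was that of cel-mir-4929, with 38, 45 and 26 in the pooled list, replicate 1 and replicate 2, but its ranks come from different summits. The summit ranked 38 lay 855 bp from cel-mir-4929, between the protein-coding genes pqn-27 and E01G4.3, and ranked 160 in replicate 1 and 26 in replicate 2. Another, 105 bp ahead of cel-mir-4929, ranked 91 in the pooled list, 45 in replicate 1 and 158 in replicate 2. Taken at a single summit the smallest sum for cel-mir-4929 is 8.88, above the 7.17 of cel-mir-55b. The ranks of cel-mir-55b, 29, 62 and 27, are those of the family's own X cluster. The third, cel-mir-229, had 58, 88 and 58 (9.78) from a summit inside it, within the translation regulator gene gcn-1, and cel-mir-64, cel-mir-65 and cel-mir-66 tied with it because they share that summit.

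Optimal summits within 2 kb were also counted for other microRNA families with broad roles in worms. The share was 9.02% over all microRNA genes outside the mir-51 family. The mir-58 family, the worm relatives of bantam and among the most abundant microRNAs in worms, was taken here as 4 genes. It was counted without cel-mir-58b and cel-mir-58c, which both had a best pooled rank of 12715. Of the 4 genes, 2 had an optimal summit within 2 kb, cel-mir-80 (pooled rank 55) and cel-mir-58a (345). Their ranks were 321 and 37 in replicates 1 and 2 for cel-mir-80, and 9598 and 181 for cel-mir-58a, so among the 1103 strongest peaks of each replicate the count was 1 of 4 in replicate 1 and 3 of 4 in replicate 2. The mir-35 family, needed in the embryo as the mir-51 family is, had none among its 8 genes, with a shared rank of 2089 at 7 of them and 3144 at cel-mir-42. Of the let-7 family, which times larval development, none of 4 genes had one, with pooled ranks of 1397 at cel-mir-48, 4295 at cel-mir-241, 4851 at let-7 and 17761 at cel-mir-84. Counted in replicate 1 and replicate 2 alone, the share of microRNA genes outside the mir-51 family was 7.84% and 9.02%. With 8 and 4 genes, counts of 0 are near these shares. The mir-51 family was chosen by its summits, so nothing is read from the contrast with it. The differences between families were not tested.

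**Figure D4:**
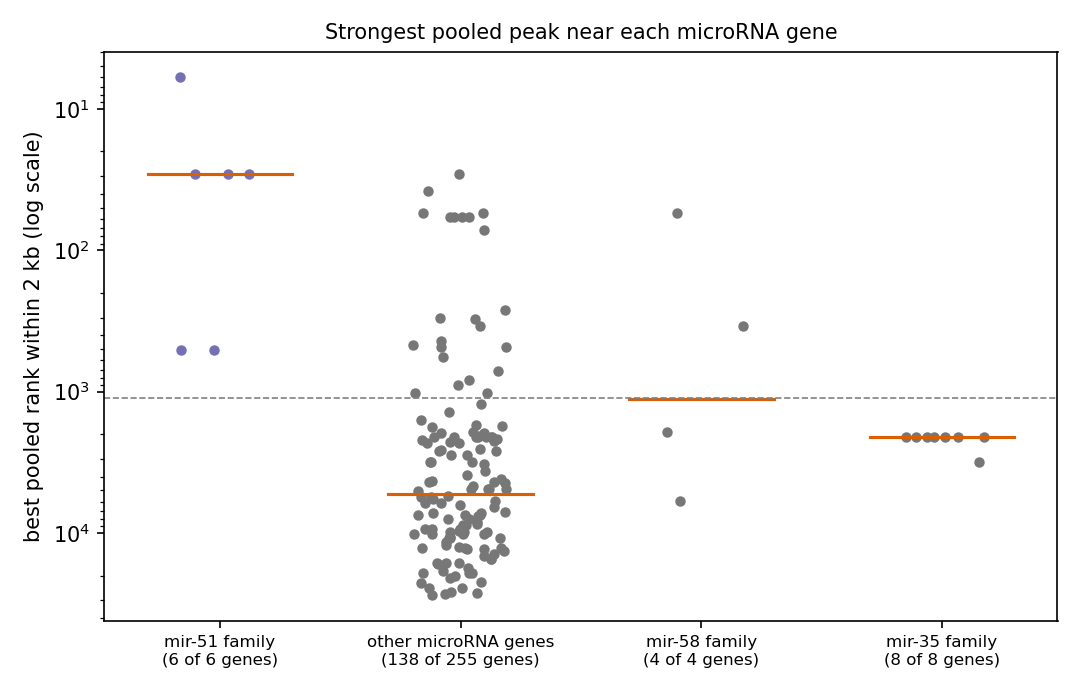
Each point is a microRNA gene placed by the best pooled rank within 2 kb (y axis, inverted log scale), for the mir-51 family, all other microRNA genes, and the mir-58 and mir-35 families, which are also part of the others. Genes with no pooled summit are left out, the orange lines are medians (29 for the mir-51 family and 5277.5 for the others), the dashed line is rank 1103, and 4 of the 6 family points lie at rank 29 or better.

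Genes listed here for the microRNA pathway had weaker pooled summits than cel-mir-52 and the X cluster. In the pooled list rde-4 alone ranked better than the pair. In replicate 1 both rde-4 (237) and cgh-1 (430) ranked better than the pair (609). In replicate 2 no listed gene did, with rde-4 at 569 and the pair at 358. Whether each listed gene is needed for microRNAs was not examined. Of the 14 listed genes, 3 (21.4%) had an optimal summit within 2 kb, beside 6.49% of protein-coding genes. None of the 3 summits fell inside the listed gene. These summits were near rde-4 (rank 291, 852 bp away), which encodes a double-stranded RNA binding partner of Dicer, ain-1 (798, 996 bp), which encodes a GW182 protein of the silencing complex, and vig-1 (1026, 437 bp), a component of that complex. Among the 1103 strongest peaks of each replicate the count was 5 of 14 in replicate 1 and 5 of 14 in replicate 2, with rde-4 and ain-1 in both. The share of protein-coding genes was not counted in each replicate, so these counts have no background beside them. The Drosha gene drsh-1 ranked 1177. No pooled summit lay within 2 kb of the Dicer gene dcr-1, the Argonaute gene alg-2 or the exonuclease gene xrn-1. The reported target cdh-3 ranked 24152, far down the pooled list. Marker genes of 6 tissues were also looked up, and none had an optimal summit within 2 kb, beside 6.49% of protein-coding genes. For 6 genes a count of 0 is near that share, so nothing about tissue is read from it. The best pooled ranks of the markers were 3108 at vit-2 (intestine), 11278 at unc-54 (body wall muscle) and 23575 at rab-3 (neurons). No pooled summit lay near myo-2 (pharyngeal muscle), col-19 (hypodermis) or rme-2 (oocytes). The replicates differed at these markers, since vit-2 ranked 376 in replicate 1, better than the 609 of the pair there, and had no summit within 2 kb in replicate 2. Summits near rme-2 (1950), col-19 (3958) and myo-2 (10958) were likewise in the replicate 1 list and not in that of replicate 2. Whether a different mix of tissue moves with the replicate difference at cel-mir-53 was not tested.

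The annotation places a non-coding RNA of 59 to 448 bp upstream of 5 family hairpins, with no other family hairpin in between at 3 of them. Within 500 bp upstream and on the same strand, 5 of 6 family genes had such an RNA, cel-mir-53 being the exception, against 13 of 255 other microRNA genes (5.10%, Wilson interval 3.00 to 8.53). The 5 genes rest on 3 such RNAs, since F09A5.11 serves cel-mir-54, cel-mir-55 and cel-mir-56 alike. The gaps at the nearest genes were 3 bp (Y37A1B.330 and cel-mir-52), 18 bp (F36H1.17 and cel-mir-51) and 118 bp (F09A5.11 and cel-mir-54). From F09A5.11 it is 288 bp to cel-mir-55 and 425 bp to cel-mir-56, with other hairpins of the cluster in between. Among the 13 others are cel-mir-36 to cel-mir-41 of the mir-35 family, with gaps of 44 to 203 bp. They too share their RNAs, which are Y62F5A.16, Y62F5A.14 and Y62F5A.15. The trait is thus not particular to the mir-51 family. The count of such RNAs was made after the loci had been inspected, in a family chosen by its summits, so nothing is read from the contrast.

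The tracts of C and T visible in the printed stretches were counted over all microRNA genes, a measure also chosen after those stretches were seen. In the 100 bases ahead of the hairpin, C and T made up 74% at cel-mir-52, 74% at cel-mir-54 and 71% at cel-mir-53. The share was 64% at cel-mir-51, 61% at cel-mir-55 and 56% at cel-mir-56. Over the 255 other microRNA genes the median was 55% (interquartile range 49 to 60) and the highest 77%. A share of 74% was reached by 1 of the 255 others and 71% by 3, while 56% was reached by 119. The 100 bases ahead of cel-mir-55 and cel-mir-56 overlap the hairpin of the preceding gene, so they are not upstream sequence of the cluster.

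Exact matches to 3 short motifs were searched on both strands from 250 bases before to 50 bases after each hairpin start. The motif CTCCGCCC, which resembles a sequence found ahead of many worm microRNAs, was in 0 of 6 family windows, against 7.84% of windows of other microRNA genes and 2.05% of all genes other than piRNA genes. TATAAA was in 2 of 6, at cel-mir-52 from 181 to 176 bases before the hairpin and at cel-mir-53 from 12 to 7 bases before it, against 28.6% and 34.2%. The repeat GAGAGAGA was in 1 of 6, on the opposite strand ahead of cel-mir-53 as a run of overlapping matches, against 7.06% and 3.93%. No motif was shared by more than 2 members. The family window of a gene inside the X cluster contains hairpins of its neighbours, and a match is a match of letters only.

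The sequence around the family was unique by exact matches of 31 bases. Every stretch of 31 bases in each hairpin and the 500 bp on either side occurs at 1 place in the 6 nuclear chromosomes, including cel-mir-52 and cel-mir-53 with their like mature strands. The length of 31 was a choice made here, since the read length is not given in the sources used here. Inexact matches were not counted, so how well reads could be placed was not tested.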

How the data were processed

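The binding of AMA-1 in 2 biological replicates of 1 group was analysed from the deposited peak lists on build ce11. Replicate numbers came from the labels. Per the README deposited with each sample, the authors derived each long list from alignments and a control alignment, for 1 replicate or for both pooled, and the optimal list from these. The control library and the build ce10 copies were not used here. Which aligner and which peak caller made the lists is not given in the sources used here. The signal value is a score deposited by the authors with no stated unit. Here it served to rank the peaks of each list separately (1 plus the number of peaks with a higher value). The deposited −log10 (q-value) is at its top value, 4.05, in all optimal peaks and in 5554 pooled peaks, so it ranks nothing here. The deposited summit offset, another column of the authors' files, gave each summit as peak start plus offset, written 1-based. The optimal list equals the 1103 strongest pooled peaks.

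Summits were placed on the Ensembl release 115 annotation of WBcel235, where let-7 was found through its RefSeq locus tag. A replicate's counterpart of a pooled peak is the overlapping peak with the nearest summit, a rule chosen after the data were seen. Genes named are the 6 members, annotated genes other than piRNA genes within 500 bp of the strongest summits, the 3 microRNA genes most like cel-mir-52 with their ties, and members of the lists for the microRNA pathway, other microRNA families and tissue markers. Genes at weaker summits of the family were named after their values were seen. The members and lists were chosen with earlier results of these data known. Shares carry 95% Wilson intervals, which cover counting of genes only. The depth per sample is unknown, and no significance test was run. The placing of summits was checked on simulated summits. Scripts ran on Biopython 1.88, pandas 2.3.3, scipy 1.17.1, numpy 2.4.6 and matplotlib 3.10.9 under Python 3.11.15.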

Additional observations from a re-analysis of the deposited data

How the results depend on the processing

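The 6 family genes and 3 loci kept an optimal-strength summit under each of the 9 alternatives: the 551 strongest peaks, the 2206 strongest pooled peaks, each replicate alone, windows of 500 bp, 1 kb and 5 kb, peak intervals, and 500 bp upstream to the 3′ end. Since polymerase peaks chose the family, this was largely set in advance. In replicate 1, cel-mir-53 was kept by other summits, such as that at 11027250 (rank 609). The replicate 1 counterpart of the pooled peak at its hairpin ranked 5060. The count of other microRNA genes was 42 (16.5%) with 2206 pooled peaks, against 23 as reported, because that list is longer. With 1 replicate left out, that count ranged from 20 to 23, and the best rank from 4 to 14 at cel-mir-52, from 27 to 62 at the X cluster and from 358 to 609 at the pair. Lists counted in each replicate alone, an alternative chosen after seeing the data, gave 1 to 3 genes of the mir-58 family (2 as reported), 5 and 5 genes of the microRNA pathway (3 as reported), 0 to 1 tissue markers, and 0 in the mir-35 and let-7 families. The share of protein-coding genes was not counted in each replicate alone. No window moved a locus's best rank, though cel-mir-53 by itself has 619 at 500 bp and 1 kb. No paired analysis was possible because there is 1 group. Depth is unknown, and a rank far down the replicate lists may be background.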
